A study of Mus musculus with 22 samples.

Results

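Expression of nuclear receptor genes was read in mouse liver of both sexes, with and without a pituitary, and after growth hormone (GH) treatment. The set was taken from a list of 42 genes of the nuclear receptor superfamily, matched to array probes by RefSeq accession or gene name. Probes were found for 41 of the 42, 53 probes in all, and none was matched to Nr3c2. Of these, 38 receptors were tested, those with a signal well above background in 1 or both channels of each array of some comparison, among 26191 genes tested of 33767 gene names on the array. Pgr, Nr4a3 and Nr0b1 were well above background in 0 of 44 array channels and are not described further.

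Livers of ICR mice aged 8 weeks were compared on 22 arrays of 2 colours, each array setting 1 pool of liver RNA against another. M-Sham and F-Sham were males and females given sham surgery and vehicle injections per the design text (their treatment is entered as untreated in the sample labels), and M-Hypox and F-Hypox had been hypophysectomised, that is, had lost the pituitary, as adults. Hypox mice of each sex received 1 GH injection and were killed after 30 min (GH30) or 90 min (GH90), or received 2 injections 4 h apart and were killed 30 min after the second (2GH). Each of the 11 comparisons was run on 2 arrays of opposite dye, with pools of 2 to 5 mice per channel, and pools of 1 group recur in several comparisons. Loss of the pituitary takes away not GH alone but also the hormones that drive the thyroid, the adrenal cortex and the gonads, so the Hypox groups are no model of GH loss by itself. The comparison of GH90 females names male Hypox mice as its reference in the design text and female Hypox mice in the sample labels. The 4 Y-linked genes measured followed the labels on all arrays: they were higher in the male channel by more than 1 on the log2 scale on 6 of 6 arrays between sexes and differed by less than 1 on 16 of 16 arrays within a sex.

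Nuclear receptors are transcription factors that bind DNA through a zinc finger domain and, in most members, change activity when a small lipophilic ligand binds. Steroid receptors bind as homodimers, while the thyroid, retinoid, lipid and xenobiotic receptors mostly bind beside a retinoid X receptor (RXR), and orphan members act with no known natural ligand. In hepatocytes they set drug metabolism, bile acid and lipid handling, and the liver's daily rhythm.

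Every value below is a log2 ratio of the first-named group over the second, given for array 1, array 2 and their mean. The standard error (SE) of a gene comes from 1 fit to all 22 arrays and is therefore the same in each comparison. A receptor is said to have been called, or to have risen or fallen, where limma's p adjusted over all 26191 genes was below 0.05. With 2 arrays of pooled RNA per comparison, and pools that recur, the p-values measure the spread between arrays, which is in part technical. In whole liver RNA, fewer cells of a type and less RNA per cell cannot be told apart.

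**Figure D1:**
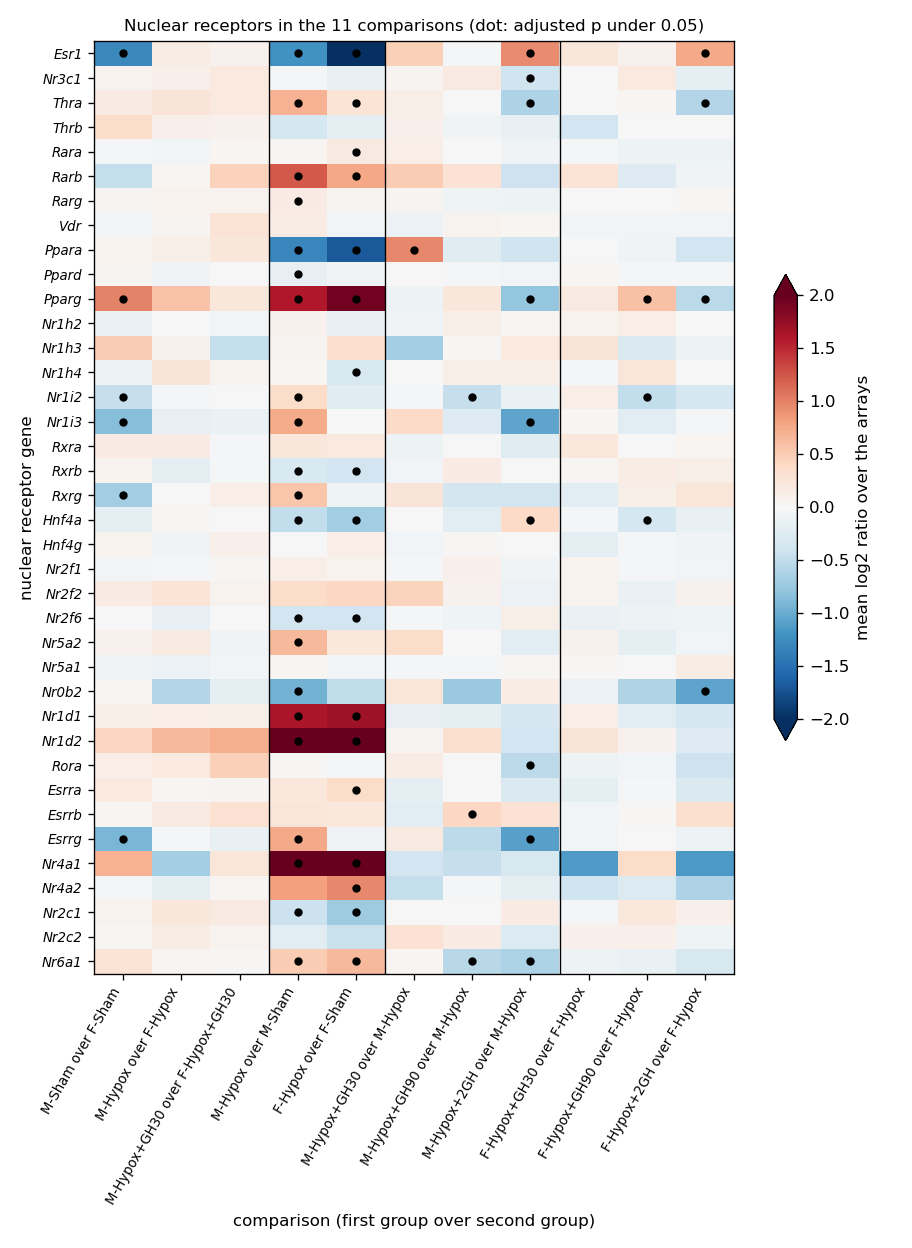
Mean log2 ratio of each of the 38 tested nuclear receptors (rows) in the 11 comparisons (columns), on a colour scale that ends at 2 in either direction, with a dot where the receptor was called. The dots crowd in the 2 columns of Hypox over Sham, with 21 in males and 17 in females, and are absent from the GH30 females and from both comparisons between sexes without a pituitary.

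Loss of the pituitary moved more receptors than any GH treatment did, and 28 of the 38 receptors were called in at least 1 of the 11 comparisons. In males 21 receptors were called, 13 higher and 8 lower in Hypox, which is 55.3% of the 38, in a comparison that called 37.4% of all genes (18.8% higher and 18.6% lower). In females 17 were called, 10 higher and 7 lower, which is 44.7% of the 38, where 31.1% of all genes were called (14.6% higher and 16.5% lower). The median size of the log2 ratio over the 38 receptors was 0.36 in males and 0.30 in females, and over all genes 0.19 and 0.16. With each array centred on its median in place of the intensity-dependent correction of dye bias, the counts dropped to 9 higher and 2 lower in males and to 5 higher and 2 lower in females. Without array 1 the counts were 13 in males and 11 in females, and without array 2 they were 15 and 12.

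Between intact sexes 6 receptors were called, 1 higher and 5 lower in males, against 8.77% of all genes (5.03% higher and 3.74% lower). Median centring left 0 higher and 2 lower, and 3 were called without either array. After 2 GH injections 9 were called in males, 2 higher and 7 lower (19.3% of all genes, 10.6% higher and 8.7% lower), and 4 in females (8.43%), and median centring left 1 higher and 1 lower in males and 0 in females. Without array 1 the counts after 2 injections were 5 and 1, and without array 2 they were 6 and 0. At 90 min 3 were called in each sex, where 4.98% of all genes were called in males and 3.17% in females. Without array 1 these counts were 0 in both sexes, and without array 2 they were 1 in males and 0 in females. At 30 min 1 was called in males (2.5% of all genes) and 0 in females (0.0191%), where 4 receptors had an unadjusted p below 0.05. The male call was lost without array 2. Of the 38 receptors, the share called at 30 min was 2.63% in males and 0% in females. At 90 min it was 7.89% in each sex, and after 2 injections 23.7% in males and 10.5% in females. The difference between these shares and those of all genes was not tested, so the counts after GH are not read as a result about the receptors as a group. Between the sexes without a pituitary 0 receptors were called, 8 having an unadjusted p below 0.05, where 1.63% of all genes were called. At 30 min after GH the count between sexes was again 0, with 6 at an unadjusted p below 0.05, where 0.504% of all genes were called.

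Esr1, estrogen receptor alpha, which carries the estrogen response of hepatocytes, fell further in females without a pituitary than any other receptor did in any of the 11 comparisons. Between intact sexes the log2 ratio of males over females was -1.21 and -1.38 (mean -1.30, SE 0.13, adjusted p = 3.57e-05), so the level was 2.45-fold higher in females. After hypophysectomy it fell in males, with ratios of -1.13 and -1.28 (mean -1.20, adjusted p = 1.83e-05), and in females, with ratios of -3.07 and -3.18 (mean -3.13, adjusted p = 1.72e-08), a level 8.73-fold lower. The 2 arrays of each comparison lie close together, and the female fall exceeded the male one by 1.92 (SE 0.19, adjusted p = 6.11e-05).

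The normalised log2 levels of Esr1 over all channels of a group ran from 11.98 to 12.25 in 4 F-Sham channels and from 10.78 to 10.86 in 4 M-Sham channels. In the 10 channels of M-Hypox they ran from 8.66 to 9.65 with a median of 9.33, and in the 10 of F-Hypox from 8.63 to 9.07 with a median of 8.84. The sham groups do not overlap with each other or with either Hypox group, whereas the Hypox groups of the sexes overlap. On the arrays that set them side by side, M-Hypox over F-Hypox gave 0.19 and 0.11 (mean 0.15, adjusted p = 0.671), with a difference that was not called.

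GH given as 2 injections raised Esr1 in both sexes, by 1.12 and 0.78 in males (mean 0.95, adjusted p = 0.000336) and by 0.76 and 0.75 in females (mean 0.76, adjusted p = 0.00599). The female call was lost without either array. At 30 min the ratio was 0.48 in males (adjusted p = 0.0764) and 0.23 in females (adjusted p = 0.767), and at 90 min it was -0.02 and 0.08, none of them called. The level after 2 injections, 9.73 and 9.78 in the 2 male channels and 9.54 and 9.58 in the 2 female channels, lay above the median of Hypox and below the sham range of the same sex. A second, dimmer Esr1 probe gave smaller ratios of the same sign, -0.30 between intact sexes, -0.10 after hypophysectomy in males and -0.54 in females. The Esr1 calls between intact sexes, after hypophysectomy in both sexes and after 2 injections in males held under every alternative processing tried.

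Nr4a1 and Nr1d2 had the highest ratios after hypophysectomy in both sexes. Nr4a1, an immediate-early orphan receptor that is induced within minutes by many stimuli and acts on gluconeogenic genes in liver, rose after hypophysectomy by 3.28 and 2.32 in males (mean 2.80, SE 0.47, adjusted p = 0.000456) and by 4.04 and 3.41 in females (mean 3.73, adjusted p = 8.9e-05). These are rises of 6.97-fold and 13.2-fold, and the sexes did not differ by test (difference -0.93, SE 0.66, adjusted p = 0.464). Its levels were widely spread within groups, from 12.46 to 15.21 in the 10 M-Hypox channels against 10.00 to 11.93 in the 4 M-Sham channels. In females they ran from 13.33 to 16.26 in the 10 F-Hypox channels and from 9.51 to 11.70 in the 4 F-Sham channels. Neither pair of ranges overlaps.

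Nr4a1 was not called after GH at any time. The 2 male arrays differed in sign at times, with -1.22 and 0.44 at 30 min and 0.66 and -1.31 after 2 injections, so the direction is not settled there. In females the ratio at 30 min was -1.15 and -1.13 (adjusted p = 0.61). Its relative Nr4a2 had a ratio of 1.09 and 0.84 after hypophysectomy in females (mean 0.96, adjusted p = 0.0303, lost without either array).

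Nr1d1 and Nr1d2 encode REV-ERB alpha and beta, repressors of the molecular clock that bind the same DNA element as the activating RORs. Nr1d1 rose after hypophysectomy by 1.96 and 1.31 in males (mean 1.64, SE 0.18, adjusted p = 1.66e-05) and by 1.66 and 1.73 in females (mean 1.69, adjusted p = 2.61e-05). Nr1d2 rose by 2.50 and 1.83 in males (mean 2.16, SE 0.18, adjusted p = 1.58e-06) and by 1.77 and 2.38 in females (mean 2.07, adjusted p = 5.06e-06). All 8 of these array ratios exceed 1 on the log2 scale, and the differences between the sexes, -0.06 for Nr1d1 and 0.09 for Nr1d2, were not called. The Nr1d1 values come from the brighter of 2 probes. Its dimmer probe, above background in 44 channels, gave smaller ratios of the same sign, 0.27 in males and 0.23 in females. Rora, an activator at the same element, gave 0.02 in males and -0.04 in females, and fell after 2 injections in males (-0.16 and -0.88, mean -0.52, adjusted p = 0.0224, lost without array 2). The female arrays after 2 injections gave -0.17 and -0.66 (mean -0.42, adjusted p = 0.0974), and the difference between the sexes was -0.10 (SE 0.20, adjusted p = 0.874). No GH treatment called Nr1d1 or Nr1d2. The hours of killing are not stated in the sources used here, and whether they differed between the groups was not tested.

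**Figure D2:**
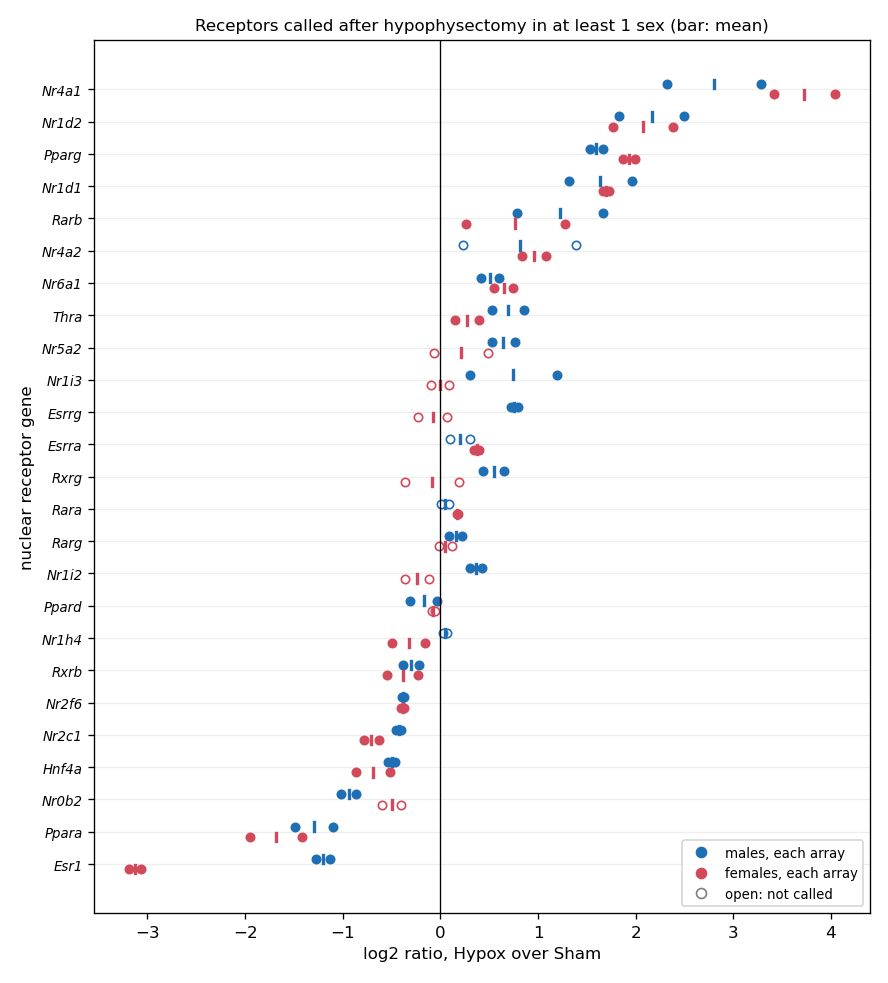
Log2 ratio of Hypox over Sham on each array (points) with the mean (bar) for the 25 receptors called in at least 1 sex, males in blue and females in red, open points marking a sex in which the receptor was not called. Nr4a1, Nr1d2, Pparg and Nr1d1 lie far to the right in both sexes, and Esr1 has means of -1.20 in males and -3.13 in females.

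Most genes known to be repressed by REV-ERBs or activated by RORs fell in both sexes. Of 10 tested, 9 fell and 0 rose in males after hypophysectomy (list median -1.51, median of all genes 0.01), and 7 fell and 0 rose in females (list median -0.97, all genes 0.00). Over all genes 18.6% fell and 18.8% rose in males, and 16.5% and 14.6% in females. E2f8, a cell cycle regulator, gave -4.02 in males (SE 0.28, adjusted p = 4e-07) and -3.85 in females (adjusted p = 1.39e-06). The clock activator genes were among them, with Clock at -1.45 in males (adjusted p = 3.09e-06) and -0.79 in females (adjusted p = 0.00057), and Arntl at -2.25 in males (adjusted p = 0.000787). Elovl3 and Cyp7b1, which are also known as male-biased GH-dependent genes, are on this list, with ratios of -3.96 and -3.65 in males and of -1.49 and -1.32 in females.

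Promoters of 4 receptors are shown: the REV-ERB pair because both rose in both sexes, Esr1 for its fall, and Nr0b2 because it holds 2 of the searched motifs, a choice made after the matches were seen. Each stretch is the 250 bases before the outermost annotated start, from RefSeq on GRCm38.p6, written 5′ to 3′ on the gene's strand, with motif matches in capitals.
Nr1d1, chr11:98775378-98775627, minus strand: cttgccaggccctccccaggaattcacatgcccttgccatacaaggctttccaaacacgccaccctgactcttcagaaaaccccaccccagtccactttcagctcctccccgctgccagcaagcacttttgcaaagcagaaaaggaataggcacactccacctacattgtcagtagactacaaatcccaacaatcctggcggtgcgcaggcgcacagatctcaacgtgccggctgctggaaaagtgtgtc
Nr1d2, chr14:18239107-18239356, minus strand: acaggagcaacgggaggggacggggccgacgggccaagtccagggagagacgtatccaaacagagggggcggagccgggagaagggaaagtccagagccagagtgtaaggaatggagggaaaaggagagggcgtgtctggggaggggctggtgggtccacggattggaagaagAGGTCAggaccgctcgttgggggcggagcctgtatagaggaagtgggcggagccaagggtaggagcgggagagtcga
Esr1, chr10:4611739-4611988, plus strand: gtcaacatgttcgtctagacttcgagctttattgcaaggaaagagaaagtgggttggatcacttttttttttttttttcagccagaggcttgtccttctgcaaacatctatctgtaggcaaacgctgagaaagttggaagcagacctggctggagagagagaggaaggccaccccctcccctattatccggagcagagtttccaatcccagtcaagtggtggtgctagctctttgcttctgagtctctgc
Nr0b2, chr4:133553126-133553375, plus strand: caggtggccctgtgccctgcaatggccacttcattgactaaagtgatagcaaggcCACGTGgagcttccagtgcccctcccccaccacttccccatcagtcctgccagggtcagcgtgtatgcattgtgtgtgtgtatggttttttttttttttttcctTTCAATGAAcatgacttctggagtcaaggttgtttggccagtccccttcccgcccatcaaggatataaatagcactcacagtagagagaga
Promoters were found for 34 of the 38 tested receptors, with 54 annotated starts. Motifs were searched on both strands and do not overlap in the stretches shown: TTCNNNGAA, the letters that STAT5, the factor activated by the GH receptor, binds; CACGTG, the E-box of the clock activators; TGACGTCA, the cyclic AMP response element; and AGGTCA, the half-site of many nuclear receptors. TTCNNNGAA was present in 9.26% of receptor promoters (5 of 54, those of Esr1 at another start, Rara, Rarb, Nr0b2 and Esrrb) and in 7.02% of all 32851 promoters. CACGTG was present in 7.41% and 6.02%, AGGTCA in 18.5% and 14% and TGACGTCA in 0% and 1.55%. In the stretches printed, the match in Nr1d2 is AGGTCA and those in Nr0b2 are CACGTG and TTCNNNGAA. None of the 4 motifs is in the stretches of Nr1d1 and Esr1, which says only that these letters are not in those windows.

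The PPAR receptors, which bind fatty acids and their derivatives, moved apart, Pparg up and Ppara down, when the pituitary was lost. Pparg, the adipogenic member that is scarce in normal hepatocytes and rises in fatty liver, was higher in intact males (0.84 and 1.14, mean 0.99, SE 0.14, adjusted p = 0.000617). It rose after hypophysectomy by 1.66 and 1.53 in males (mean 1.60, adjusted p = 3.28e-06) and by 1.87 and 1.99 in females (mean 1.93, adjusted p = 1.48e-06), which are rises of 3.02-fold and 3.82-fold. After 2 GH injections it fell in both sexes, with ratios of -0.71 and -0.83 in males (mean -0.77, adjusted p = 0.0021) and with ratios of -0.52 and -0.54 in females (mean -0.53, adjusted p = 0.0377). At 90 min it had risen in females (0.45 and 0.73, mean 0.59, adjusted p = 0.0426), while the 2 male arrays lay on either side of 0 (mean 0.23). The female calls after GH were lost without either array, and the male call after 2 injections without array 1.

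Ppara, the activator of fatty acid oxidation in fasting, fell after hypophysectomy with ratios of -1.10 and -1.49 in males (mean -1.30, SE 0.21, adjusted p = 0.000398) and with ratios of -1.42 and -1.95 in females (mean -1.68, adjusted p = 9.36e-05). Intact males and females did not differ by test (0.07, adjusted p = 0.908). It was the single receptor called at 30 min of GH, with 0.56 and 1.36 in males (mean 0.96, adjusted p = 0.0365), a rise that was lost without array 2 and under 5 other alternatives. The female arrays at 30 min gave 0.07 and -0.05. The male time difference between 2 injections and 30 min was -1.36 (SE 0.30, adjusted p = 0.0101, lost without array 2). The log2 levels of Ppara over all channels do not show this fall. They were 10.78 and 10.81 in M-Hypox plus 2GH and ran from 10.08 to 11.75 in the 4 channels of M-Hypox plus GH30 (median 10.76). In the 10 M-Hypox channels they ran from 10.08 to 11.29 (median 10.49), so the levels at 30 min overlap those of M-Hypox. Ppard, the ubiquitous member, had a ratio of -0.31 and -0.03 after hypophysectomy in males (mean -0.17, adjusted p = 0.0324), was above background in 34 of 44 channels and lost its call under 6 alternatives.

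Known targets of PPAR alpha did not move one way with their receptor. After hypophysectomy 6 of 18 rose and 7 fell in males (list median -0.15), and 3 rose and 5 fell in females (list median -0.34). Over all genes 18.8% rose and 18.6% fell in males, and 14.6% and 16.5% in females. Angptl4, an inhibitor of lipoprotein lipase, gave -3.08 in males (SE 0.29, adjusted p = 4.63e-06) and -2.40 in females (adjusted p = 6.43e-05). Plin2, which coats lipid droplets, gave -1.69 and -1.37 (adjusted p = 2.62e-07 and 3.36e-06). Cyp4a14, a fatty acid hydroxylase that is also known to be female-biased, rose by 3.70 in males (SE 0.27, adjusted p = 5.71e-07) and by 1.41 in females (adjusted p = 0.00171).

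The sterol and bile acid sensors moved little. Nr1h4, the bile acid receptor FXR, fell in females after hypophysectomy (-0.15 and -0.50, mean -0.33, SE 0.08, adjusted p = 0.0103, lost without array 2), and its male arrays were near 0 (mean 0.05). The oxysterol receptors Nr1h3 (LXR alpha) and Nr1h2 (LXR beta) were called in none of the 11 comparisons. Nr1h3 differed between the male GH times (2 injections minus 30 min 0.87, SE 0.27, adjusted p = 0.0468), a call that was lost under 9 of 14 alternatives. Of 10 LXR targets, 5 rose and 1 fell in males after hypophysectomy (list median 0.56) and 4 rose and 1 fell in females (list median 0.56), among them the sterol exporters Abcg5 (1.58 and 1.17) and Abcg8 (1.21 and 1.10) in males and females. Nr0b2 encodes SHP, a receptor with no DNA-binding domain that FXR induces to repress bile acid synthesis. It fell after hypophysectomy in males (-1.02 and -0.86, mean -0.94, SE 0.26, adjusted p = 0.0138) and after 2 GH injections in females (-1.40 and -0.72, mean -1.06, adjusted p = 0.0291), and both calls were lost without either array. Of 10 FXR and SHP targets, 4 fell and 1 rose in males and 4 fell and 0 rose in females after hypophysectomy, with Slc10a1, the bile acid importer, at -1.52 (adjusted p = 0.00013) and -1.29 (adjusted p = 0.000679). Beside the counts of both target lists, 18.8% of all genes rose and 18.6% fell in males, and 14.6% and 16.5% in females.

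The xenobiotic receptors and 2 further receptors shared a pattern of higher levels in intact females and a rise in males after hypophysectomy. Nr1i3 encodes CAR and Nr1i2 encodes PXR, sensors of drugs that induce cytochromes P450 and are concentrated in hepatocytes. Rxrg is the RXR that is least abundant in liver, and Esrrg is an orphan relative of the estrogen receptors that acts on oxidative metabolism.

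Nr1i3 gave -0.75 and -0.94 in males over females (mean -0.85, SE 0.23, adjusted p = 0.035), and 0.30 and 1.19 in Hypox over Sham males (mean 0.75, adjusted p = 0.0204). Nr1i2 gave -0.48 and -0.44 between intact sexes (mean -0.46, SE 0.11, adjusted p = 0.0198), and 0.42 and 0.30 in Hypox over Sham males (mean 0.36, adjusted p = 0.0211). Both were lower in the M-Sham pools in each of these comparisons, which share those pools and are therefore no independent evidence of each other. Rxrg gave -0.55 and -0.85 between intact sexes (mean -0.70, SE 0.15, adjusted p = 0.0125) and 0.44 and 0.65 after hypophysectomy in males (mean 0.55, adjusted p = 0.0137). Esrrg gave -0.91 and -0.93 (mean -0.92, SE 0.16, adjusted p = 0.00278) and 0.72 and 0.79 (mean 0.76, adjusted p = 0.00253). Of these 4, none was called in females after hypophysectomy, with 0.09 and -0.10 on the 2 arrays for Nr1i3 and means of -0.24 for Nr1i2, -0.08 for Rxrg and -0.08 for Esrrg.

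The difference between the sexes in the response to hypophysectomy passed the test for Nr1i2 (0.60, SE 0.16, adjusted p = 0.0395) and Esrrg (0.83, SE 0.23, adjusted p = 0.0472) and not for Nr1i3 (0.75, SE 0.32, adjusted p = 0.199) or Rxrg (0.63, SE 0.22, adjusted p = 0.109). With Esr1 and Thra, 4 receptors differed in this way, all with the higher ratio in males, where 6.74% of all genes differed, and without either array 1 of the 4, Esr1, remained. The Nr1i2 and Nr1i3 calls between intact sexes were lost without either array, as was that of Nr1i2 in Hypox males. Without array 1 the Esrrg calls between intact sexes and in Hypox males were lost. Without array 2 the Rxrg calls in both comparisons and that of Nr1i3 in Hypox males were lost. The Esrrg values come from the brighter of 2 probes, and the other gave -0.03, -0.01 and -0.05 between intact sexes, in Hypox males and after 2 injections in males.

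**Figure D3:**
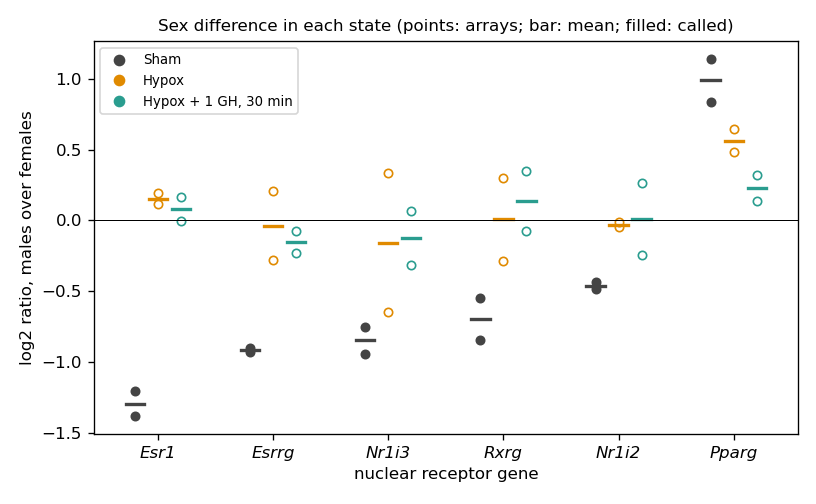
Log2 ratio of males over females on each array (points) with the mean (bar) in Sham, Hypox and Hypox plus GH30 mice for the 6 receptors called between intact sexes, open points marking comparisons in which the receptor was not called. The 5 receptors with ratios below 0 in Sham have means between -0.16 and 0.15 in Hypox, and Pparg keeps a mean of 0.56 there.

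Without a pituitary the means of males over females were -0.16 for Nr1i3, -0.03 for Nr1i2, 0.01 for Rxrg, -0.04 for Esrrg and 0.56 for Pparg (adjusted p = 0.0699). After 2 GH injections Nr1i3 fell in males with ratios of -1.37 and -0.76 (mean -1.06, adjusted p = 0.00542) and Esrrg with ratios of -1.35 and -0.82 (mean -1.09, adjusted p = 0.000482). Without array 1 the Nr1i3 call was lost. In females their means were -0.03 and -0.10, and the difference between the sexes passed the test for Esrrg (-0.99, SE 0.23, adjusted p = 0.0474, lost without either array). The log2 levels over all channels of a group differ from these female ratios. Nr1i3 was at 12.26 and 12.43 in the 2 channels of F-Hypox plus 2GH and ran from 12.37 to 13.70 in the 10 of F-Hypox (median 13.34). Esrrg was at 7.53 and 8.06 in F-Hypox plus 2GH and ran from 7.82 to 8.91 in F-Hypox (median 8.38). For both genes the 2GH channels thus lie below the F-Hypox median, and the ranges overlap. Nr1i2 fell at 90 min in both sexes, with ratios of -0.44 and -0.48 in males (mean -0.46, adjusted p = 0.0319) and with ratios of -0.58 and -0.39 in females (mean -0.49, adjusted p = 0.0332), calls that were each lost without either array, and the female ratio changed sign to 0.18 under median centring.

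The list medians of known CAR and PXR targets were likewise lower in intact males and higher in Hypox males, while single targets went either way. Whether the targets' levels are tied to those of the receptors was not tested. Of 13 tested, 8 were lower and 1 higher in intact males (list median -1.05, all genes -0.01), where 3.74% of all genes were lower and 5.03% higher. In Hypox over Sham males 10 rose and 1 fell (list median 1.03), and in females 3 rose and 4 fell (list median -0.03). Of all genes, 18.8% rose and 18.6% fell in males, and 14.6% and 16.5% in females. The targets' ratios ran from -3.76 to 1.02 between intact sexes. They ran from -2.74 to 3.58 in Hypox males and from -2.99 to 2.86 in Hypox females. The comparison of intact sexes and that of Hypox males share the M-Sham pools, so they are no independent evidence of each other. Cyp2c37 gave -3.76 between intact sexes (SE 0.25, adjusted p = 6.81e-07) and 3.44 in Hypox males (adjusted p = 5.75e-07). Cyp2b10, the classical CAR target, gave -3.16 (SE 0.20, adjusted p = 4.9e-07) and 3.00 (adjusted p = 3.16e-07). After 2 injections 4 fell and 0 rose in males (list median -0.39), with Cyp2b10 at -0.82 (adjusted p = 0.013), and 1 fell in females, Cyp3a13 (-0.94, adjusted p = 0.0038). Of all genes, 8.7% fell and 10.6% rose in males after 2 injections, and 8.43% were called either way in females.

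**Figure D4:**
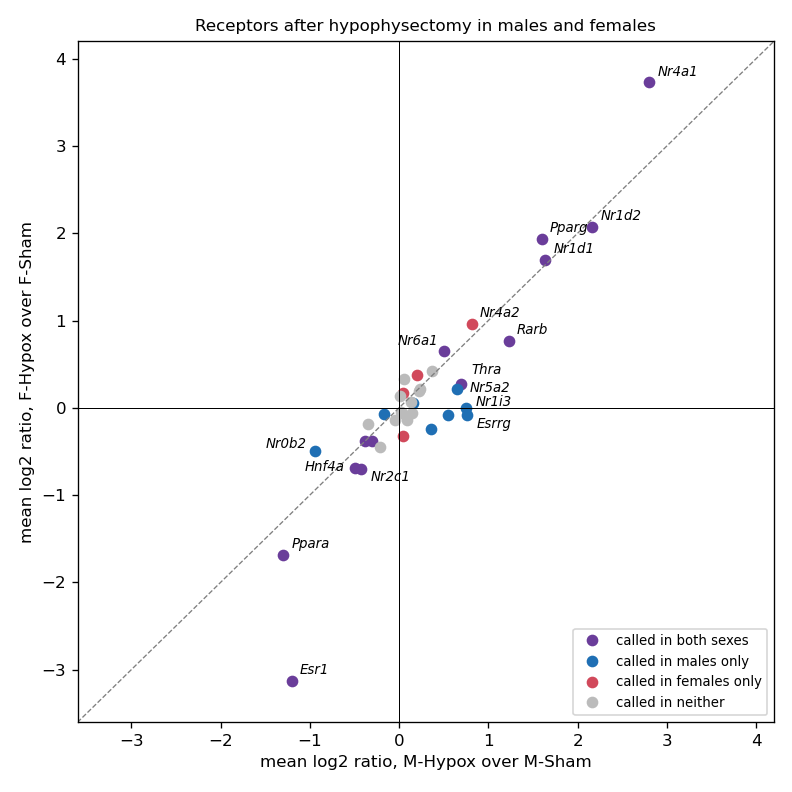
Mean log2 ratio of Hypox over Sham in males (x axis) and females (y axis) for the 38 receptors, coloured by the sex in which they were called, with a dashed line of equal response. The 13 receptors called in both sexes lie in the upper right (7) or lower left (6) and none in the other quadrants. Esr1 lies far below the line, and Nr1i3 and Esrrg lie on the right near 0 on the female axis.

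Both sexes shared 13 of the receptors called after hypophysectomy, 7 higher (Thra, Rarb, Pparg, Nr1d1, Nr1d2, Nr4a1, Nr6a1) and 6 lower (Esr1, Ppara, Rxrb, Hnf4a, Nr2f6, Nr2c1), and 0 were called in opposite directions. These 13 are 61.9% of the male calls and 76.5% of the female calls. Over all genes the sexes shared 5430 calls, 55.5% of the male calls and 66.7% of the female calls, of which 142 had opposite directions. The difference between the receptors' shares and those of all genes was not tested.

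Among the receptors for endocrine ligands, Thra, the thyroid hormone receptor alpha, rose after hypophysectomy by 0.86 and 0.53 in males (mean 0.69, SE 0.07, adjusted p = 1.34e-05) and by 0.40 and 0.15 in females (mean 0.28, adjusted p = 0.0125). The male rise was the larger by 0.42 (SE 0.10, adjusted p = 0.0325, lost without either array). That call was lost under 7 of 13 alternatives in all, among them the mean of all probes. A second, dimmer Thra probe gave 0.39 in males and 0.28 in females. After 2 GH injections Thra fell in both sexes, with ratios of -0.60 and -0.63 in males (mean -0.61, adjusted p = 0.000118) and with ratios of -0.42 and -0.74 in females (mean -0.58, adjusted p = 0.00109). At 30 min it was 0.12 in males and -0.01 in females, and the difference between 2 injections and 30 min passed the test in both sexes (-0.74, adjusted p = 0.000919, in males and -0.57, adjusted p = 0.0236, in females). The female call after hypophysectomy was lost without either array, and that after 2 injections without array 2. On GRCm38.p6 the span of Thra, chr11:98740776-98769006, overlaps that of Nr1d1, chr11:98767932-98775377. Thrb, the thyroid receptor beta that predominates in hepatocytes, was called in 0 of the 11 comparisons, with -0.35 in males and -0.19 in females after hypophysectomy. Thyroid hormone targets fell with the pituitary lost: 5 of 6 fell and 1 rose in each sex (list medians -1.60 and -1.95), with Dio1, the deiodinase that activates thyroid hormone, at -4.63 (SE 0.34, adjusted p = 6.75e-07) in males and -4.50 (adjusted p = 1.98e-06) in females. Over all genes 18.6% fell and 18.8% rose in males, and 16.5% and 14.6% in females.

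Rarb, retinoic acid receptor beta, which retinoic acid itself induces, rose after hypophysectomy by 0.78 and 1.67 in males (mean 1.23, SE 0.21, adjusted p = 0.000548) and by 0.26 and 1.27 in females (mean 0.77, adjusted p = 0.0144, lost without array 2). Array 2 gave the larger ratio in both sexes. Rara and Rarg moved by under 0.2 where called, Rara in females (mean 0.17, adjusted p = 0.0195) and Rarg in males (mean 0.16, adjusted p = 0.0454), and both calls were lost without either array. Vdr, the vitamin D receptor, which hepatocytes hardly express, was above background in 29 of 44 channels and was not called.

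Nr3c1, the glucocorticoid receptor, was called once, with -0.33 and -0.46 after 2 GH injections in males (mean -0.40, SE 0.09, adjusted p = 0.01, lost without either array). Its ratios after hypophysectomy were -0.04 in males and -0.15 in females. Of its 11 targets tested, 2 rose and 3 fell in males and 0 rose and 3 fell in females. Over all genes 18.8% rose and 18.6% fell in males, and 14.6% and 16.5% in females, so nothing is read from these counts. Fkbp5, which limits glucocorticoid receptor activity and is induced by it, fell with ratios of -1.15 in males (SE 0.14, adjusted p = 3.96e-05) and with ratios of -2.32 in females (adjusted p = 2.61e-07), and rose after 2 GH injections by 1.45 (adjusted p = 2.99e-05) and 0.90 (adjusted p = 0.00313). The metallothionein gene Mt1, also on the list, was at 2.87 in males (adjusted p = 5.71e-05) and at 0.11 in females (adjusted p = 0.861).

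Hnf4a, which maintains hepatocyte identity, fell after hypophysectomy with ratios of -0.46 and -0.53 in males (mean -0.50, SE 0.09, adjusted p = 0.000575) and with ratios of -0.52 and -0.86 in females (mean -0.69, adjusted p = 8.32e-05). After 2 GH injections it rose in males by 0.38 on both arrays (adjusted p = 0.00764, lost without array 2), and the female ratio was -0.15. Its log2 levels over all channels were 14.71 and 14.72 in F-Hypox plus 2GH, above the F-Hypox median of 14.40 and within the F-Hypox range of 14.20 to 14.90. In males they were 14.89 and 14.96 after 2 injections, above the M-Hypox range of 14.15 to 14.70. The female direction thus differs between the paired ratio and the levels over all channels. By the paired ratios the difference between the sexes was 0.53 (SE 0.12, adjusted p = 0.0464, lost without either array), Hnf4a being 1 of 2 receptors that differed after 2 injections, where 1.97% of all genes did. At 90 min Hnf4a fell in females (-0.32 and -0.39, mean -0.36, adjusted p = 0.0416), a call lost without either array, and the ratio turned to 0.26 under median centring. The male ratio at 90 min was -0.21 and was not called, and the sexes did not differ by test. The dimmer Hnf4a probes gave -0.16 and -0.11 in females and -0.34 and -0.22 in males at 90 min. Nr5a2, LRH-1, an activator of bile acid synthesis, rose in males after hypophysectomy (0.76 and 0.53, mean 0.64, SE 0.15, adjusted p = 0.00512, lost without array 1) and gave 0.21 in females. Nr2f6 fell with ratios of -0.38 (adjusted p = 0.000116) in males and with ratios of -0.39 (adjusted p = 0.000175) in females, with 4 arrays between -0.37 and -0.40. Hnf4g, Nr2f1, Nr2f2 and Nr5a1 were called in no comparison.

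The RXRs are the shared partners of the thyroid, retinoid, lipid and xenobiotic receptors. Rxra, the main hepatic RXR, was called in no comparison, with ratios between -0.24 and 0.23. Rxrb fell after hypophysectomy in males (-0.39 and -0.22, mean -0.30, SE 0.08, adjusted p = 0.00982) and females (-0.54 and -0.22, mean -0.38, adjusted p = 0.00319). The male call was lost without either array and the female call without array 1.

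Of the remaining orphans, Nr6a1, the germ cell nuclear factor, rose after hypophysectomy by 0.42 and 0.60 in males (mean 0.51, SE 0.13, adjusted p = 0.00831) and by 0.75 and 0.55 in females (mean 0.65, adjusted p = 0.00238). It fell after GH in males at 90 min (-0.60 and -0.50, mean -0.55, adjusted p = 0.0299) and after 2 injections (-0.75 and -0.51, mean -0.63, adjusted p = 0.00436). In females the means were -0.13 and -0.33, neither called. The sexes did not differ by test at 90 min (-0.42, adjusted p = 0.465) or after 2 injections (-0.30, adjusted p = 0.454). The log2 levels of Nr6a1 were 8.04 and 8.17 in F-Hypox plus 2GH, below all 10 F-Hypox channels (median 9.01). In M-Hypox plus 2GH they were 7.88 and 8.08, below all 10 M-Hypox channels (median 9.03). Without array 1 the calls in Hypox females and at both male GH times were lost, and without array 2 those in Hypox males and at 90 min. Nr2c1, testicular receptor 2, fell with ratios of -0.43 in males (adjusted p = 0.00571, lost without either array) and with ratios of -0.71 in females (SE 0.10, adjusted p = 0.000282). Esrra, which acts with PGC-1 coactivators on mitochondrial genes, rose in Hypox females (0.40 and 0.35, mean 0.37, adjusted p = 0.011, lost without array 1). Esrrb rose in males at 90 min (0.50 and 0.34, mean 0.42, adjusted p = 0.0465, lost without either array). The 10 receptors called in none of the 11 comparisons, which include Nr2c2, had ratios between -0.67 and 0.50.

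**Figure D5:**
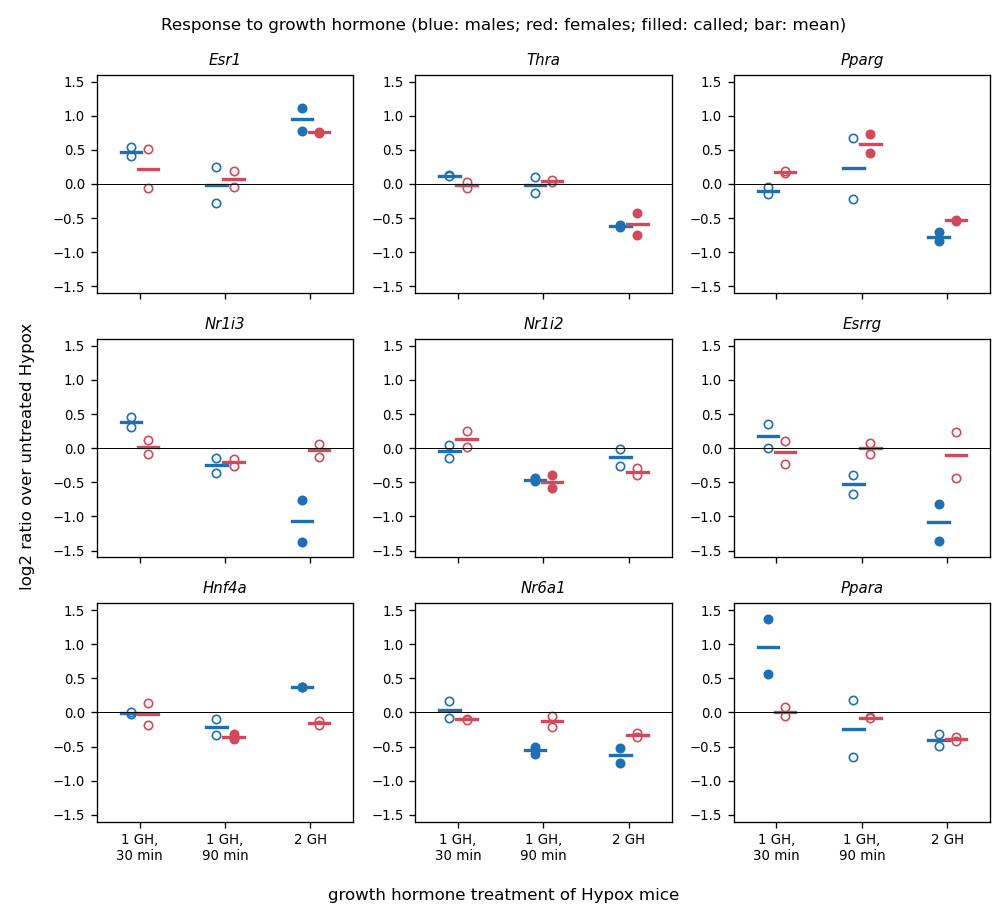
Log2 ratio of GH-treated over untreated Hypox mice on each array (points) with the mean (bar) at 30 min and 90 min after 1 injection and after 2 injections, for 9 receptors, males in blue and females in red, filled where called. Esr1 lies above 0 after 2 injections in both sexes, Thra and Pparg lie below, and Nr1i3 and Esrrg have male means of -1.06 and -1.09 beside female means of -0.03 and -0.10.

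The GH treatments of 1 sex were also set against each other. Between 2 injections and 30 min, 11 receptors differed in males, 3 higher and 8 lower after 2 injections, where 14.6% of all genes differed (7.61% higher and 6.99% lower). Without array 1 that count was 3 and without array 2 it was 2. In females 1, Thra, differed, where 1.41% of all genes did, a call lost without either array. These comparisons share Hypox pools. Between 90 min and 30 min 0 receptors differed in either sex, with 9 in males and 4 in females at an unadjusted p below 0.05, where 2.46% and 0.153% of all genes differed. By test of the sex difference itself, 0 receptors differed at 30 min (5 at an unadjusted p below 0.05) and 0 at 90 min (4), where 0.00764% of all genes differed at each time, and 2 differed after 2 injections.

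Of 22 coregulators that nuclear receptors recruit, 3 rose and 5 fell in males when the pituitary was lost (list median -0.15, all genes 0.01) and 2 rose and 9 fell in females (list median -0.16, all genes 0.00). With 18.8% of all genes higher and 18.6% lower in males, and 14.6% and 16.5% in females, nothing is read from these counts about the coregulators as a group. Ncor1, the corepressor of unliganded receptors and of REV-ERBs, fell with ratios of -0.58 (SE 0.10, adjusted p = 0.000475) and -0.76 (adjusted p = 0.000111). Ppargc1a, PGC-1 alpha, the coactivator of the fasting response, was at 1.13 in males (2.03 and 0.23, SE 0.37, adjusted p = 0.0281) and -1.11 in females (adjusted p = 0.0363). Trim24, a coregulator of retinoic acid receptors, was lower in intact males (-1.99, SE 0.15, adjusted p = 2.21e-06), rose in Hypox males (0.58, adjusted p = 0.0088) and fell in Hypox females (-1.76, adjusted p = 4.98e-06). Genes that supply or clear ligands split, with 6 rising and 7 falling of 23 in males and 4 rising and 8 falling in females, among them Serpina7, the thyroxine-binding globulin, at 3.32 (SE 0.18, adjusted p = 4.8e-08) and 4.18 (adjusted p = 1.75e-08), and Serpina6, the cortisol carrier, at 2.88 (SE 0.13, adjusted p = 8.69e-09) and 1.18 (adjusted p = 3.47e-05).

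All 6 hepatocyte markers tested were above background in all 44 channels. In Hypox males 2 of them fell, Serpina1e (-1.67) and Apoa1 (-0.82), and in Hypox females Apoa1 (-0.68) and Serpina1e (-0.59) fell and Ttr rose (0.62). Median spot signal was 294 to 376 in green and 415 to 522 in red, over median backgrounds of 245 to 290 and 316 to 346, and 57.1% to 77.7% of spots were well above background. The 57.1% is the red channel of array 2 of F-Hypox over F-Sham, which also had the most outlier spots (159), and all other channels had 69.3% or more. Without that array 12 receptors were called in Hypox females in place of 17. Genes of skeletal muscle moved between pools: of 14 tested, 9 were lower in M-Hypox than M-Sham and 13 lower in F-Hypox plus 2GH than F-Hypox, and the array medians of M-Sham over F-Sham were 1.65 and 2.71. The log2 of their summed level ran from 14.13 to 15.85 in M-Sham, from 11.36 to 13.50 in M-Hypox, from 11.43 to 12.78 in F-Sham and from 11.47 to 16.85 in F-Hypox. Ckm was above background in 19 of 44 channels. The array medians of this list were 0.09 and 0.00 in F-Hypox over F-Sham, 2.91 and -0.05 at 30 min in males, and -0.04 and 2.80 after 2 injections in males. The part of muscle RNA in the receptor results was not tested. Lymphocyte markers rose after hypophysectomy in 5 of 6 genes in males and 4 of 6 in females, with log2 summed levels of 9.71 to 10.01 in M-Sham, 10.90 to 11.16 in M-Hypox, 9.89 to 10.12 in F-Sham and 10.50 to 11.01 in F-Hypox, and their part in the receptor results was not tested. All 7 Kupffer cell markers tested lay between -0.84 and -0.49 in M-Sham over F-Sham, 2 of them called, with log2 summed levels of 14.56 to 14.78 in M-Sham and 15.23 to 15.42 in F-Sham. The 5 cholangiocyte markers had log2 summed levels of 14.65 and 14.80 in M-Hypox plus 2GH against 13.42 to 13.75 in M-Hypox, and of 13.86 and 14.77 in F-Hypox plus 2GH against 13.41 to 13.81 in F-Hypox. The part of the hepatocyte, Kupffer cell and cholangiocyte markers' changes in the receptor results was not tested either.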

How the data were processed

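Liver RNA of 10 groups was compared on 22 Agilent mouse arrays of 2 colours, 2 arrays of opposite dye for each of 11 comparisons. Scanner intensity values (mean and median background signal of each channel) and quality flags, a category other than a measured value, were deposited as written by Agilent Feature Extraction 9.5.1.1, per the file headers. The log10 ratios in the same files are the scanner software's, of red over green, per the file headers. A value table of log2 ratios deposited by the authors was compared with those ratios: each of its 22 columns matched, to within 0.005 on the log2 scale, the ratios of a single array file, which carried the same label for 6 columns and was the other replicate of that comparison for 16. Its column medians lay between -0.02 and 0, and it was not used for tests.

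In limma 3.58.1 under R 4.3.3, background was corrected by normexp (offset 50) and each array's dye bias by loess. Control spots had weight 0 there, and spots marked as outliers were removed. Levels per channel used between-array Aquantile normalisation. Of 41174 probes, 22072 were named through a RefSeq accession and 19102 kept the name in the file. The brightest probe stood for a gene. A gene was tested if well above background in both arrays of a comparison for at least 1 channel. A linear model with 11 comparisons and a dye term was fitted to all arrays (10 residual degrees of freedom, 2.5 prior), with limma's moderated test and Benjamini-Hochberg adjustment over all genes at 0.05. A call in 1 of the 11 comparisons also needed both arrays to go the same way. In all, 2870 genes had a dye effect. Recurring pools were taken as independent. The arrays lie on 7 slides scanned on 4 days.

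The number of arrays limits the precision. The labels do not state that same-numbered arrays share pools, and replicate numbers were not used as a block. Named receptors are all members, with array values for those called, at most 8 per comparison by size of ratio in the rule, and from each gene list at most 3 called genes per comparison. Clock and Arntl were named beyond that limit. Members, lists and tests were chosen with earlier results of these data known, so no pattern here is independent support of those results. Promoters come from RefSeq on GRCm38.p6. The model was tested on simulated data. Alternatives were median centring, no background correction, the scanner's log ratio, no dye term, 2 arrays alone, no sham arrays, a loop model over groups, slide or scan day as a random block, a replicate block, the mean of all probes, no filter on dim probes, and leaving out each array.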

Additional observations from a re-analysis of the deposited data

Results flagged for a closer look

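The response of 4 receptors to hypophysectomy differed between the sexes by a test of the difference itself, males minus females on the log2 scale: Esr1 by 1.92 (SE 0.19, adjusted p = 6.11e-05), Thra by 0.42 (SE 0.10, adjusted p = 0.0325), Nr1i2 by 0.60 (SE 0.16, adjusted p = 0.0395) and Esrrg by 0.83 (SE 0.23, adjusted p = 0.0472). The 4 were picked by this test on these same arrays, so their ratios on single arrays add no support to it. The response to 2 GH injections differed for Hnf4a by 0.53 (SE 0.12, adjusted p = 0.0464) and for Esrrg by -0.99 (SE 0.23, adjusted p = 0.0474). The difference of Esr1 held under all 13 alternatives, and the other 5 were each lost without either array. Those of Thra, Hnf4a and Esrrg, the last in both responses, were also lost with the mean of all probes. Groups of 2 arrays are too small for a test of single outlying arrays.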

How the results depend on the processing

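Of 64 calls of receptors in the 11 comparisons, 17 held under every alternative and 47 were lost under at least 1: 40 under median centring, 30 without array 1, 30 without array 2 and 26 with a fit to the 2 arrays of the comparison alone. Those 17 include Esr1 between intact sexes and after hypophysectomy, and Nr1d1, Nr1d2, Nr4a1, Ppara and Pparg after hypophysectomy in both sexes. The cause of the losses was not tested, apart from the smaller number of arrays where arrays were left out. Under median centring 2 called ratios changed sign, Nr1i2 to 0.18 and Hnf4a to 0.26 in GH90 females, where the median over the receptors moved from -0.02 to 0.37.

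Counts of called receptors under median centring were 2 for M-Sham over F-Sham, 11 for Hypox over Sham males, 7 for Hypox over Sham females, 2 for males and 0 for females after 2 injections, 0 for males at 30 min, 0 for males and 1 for females at 90 min, 1 for the sex difference after hypophysectomy, 0 for that after 2 injections, and 1 in males and 0 in females for 2 injections against 30 min. With the 2 arrays alone they were 0 for males at 30 min and 1 for females, 0 for both sexes at 90 min, 4 for males after 2 injections, 11 for Hypox females, 1 and 0 for the sex differences after hypophysectomy and 2 injections, and 0 for males between 2 injections and 30 min. Without sham arrays they were 0 for males at 30 min, 0 for both sexes at 90 min, 2 for females after 2 injections, 1 for each comparison between the sexes without a pituitary, 0 for the sex difference after 2 injections, and 0 for females between 2 injections and 30 min. The loop model gave 0 for males at 30 min, 4 and 2 for the sexes in Hypox and Hypox with GH30, 7 and 1 for the sex differences after hypophysectomy and at 30 min, and 2 for females between 2 injections and 30 min.

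Without a dye term the counts were 1 for females at 90 min, 2 and 0 for the sex differences after hypophysectomy and 2 injections, and 5 in males and 0 in females between 2 injections and 30 min. The scanner's log ratio gave 0 for males at 30 min, 0 for the sex difference after 2 injections and 5 for males between 2 injections and 30 min. The mean of all probes gave 2 and 0 for the sex differences after hypophysectomy and 2 injections, and no filter gave 1 for the latter and 7 for males between 2 injections and 30 min. Scan day as a random block gave 2 and 1 for the sexes in Hypox and Hypox with GH30 and 2 for males between 90 and 30 min, slide 2 for the last, and no background correction 1. Deviations of same-numbered arrays correlated between -0.49 and 0.72 (median 0.10), so whether some of them share pools is not settled. The replicate block left every count within 1.5 times, with 21 in Hypox males and 18 in Hypox females.

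Without 1 array, the counts were 3 for M-Sham over F-Sham, 13 to 15 for Hypox males, 11 to 12 for Hypox females, 0 to 1 for males at 30 min, 0 to 1 for males and 0 for females at 90 min, 5 to 6 for males and 0 to 1 for females after 2 injections, 1 for the sex difference after hypophysectomy, 0 for that after 2 injections, and 2 to 3 in males and 0 in females between 2 injections and 30 min. Vdr was above background in 29 of 44 channels, Ppard in 34 and Hnf4g in 38, which limits their ratios. Rara, Rarg and Nr5a1 were above background in 43 but lay close to Vdr in level, which limits their ratios too. Their median log2 levels in F-Sham were 6.56, 6.48 and 6.66, and that of Vdr was 6.39.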
